A study of Mus musculus with 6 samples.

Results

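Cybb, Cyba, Ncf1 and Ncf4, which encode subunits of the phagocyte NADPH oxidase, were followed in LSK cells of WT and IkL/L mice. These are 4 of the 18193 genes that could be read from the arrays, and they are covered by 8 of 45037 probe sets: every probe set that the platform annotation gives to 1 of these genes alone, 3 for Cybb, 3 for Ncf1, 1 for Cyba and 1 for Ncf4. LSK cells are bone marrow cells that lack lineage markers and carry both Sca1 and c-Kit, and they include haematopoietic stem cells and multipotent progenitors. There were 3 WT and 3 IkL/L arrays, all from C57BL/6 mice 6 to 7 weeks of age. IkL/L mice carry on both alleles a hypomorphic mutation of Ikzf1 that lowers the amount of the transcription factor Ikaros, and no agent was named for either group. Each WT sample was the RNA of 1 mouse, and cells of 2 mice were pooled for each IkL/L sample. Bone marrow had been depleted of cells that carry B220, CD11b, Gr1 or Ter119 before the sort. The comparison asks how the genes of this enzyme differ between progenitors with normal and with low Ikaros. The genes had been chosen with this genotype difference known, so that their differences are given as a description and nothing is read from tests of them. The gene lists used further on were also chosen with earlier results of these data known, which limits what their calls and p-values can show.

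The oxidase passes electrons from NADPH through a membrane to oxygen and so makes superoxide, with which phagocytes kill microbes. Its membrane part, cytochrome b558, is a pair of the catalytic subunit gp91phox (Cybb) and the stabilising subunit p22phox (Cyba). Cytosolic subunits, among them the organiser p47phox (Ncf1) and p40phox (Ncf4), dock onto it together with a Rac GTPase when the cell is stimulated, and loss of a subunit causes chronic granulomatous disease. Cybb and the cytosolic subunits belong mainly to myeloid cells and, at lower levels, B cells, whereas Cyba is made in many tissues and also serves other NADPH oxidases.

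The promoters of the members are shown as a description, and a link between their motifs and the genotype differences was not tested. RefSeq (build GRCm38.p6) gave a window of 300 bases, 250 before and 50 after the transcription start, for 3 of the 4 members, all on the minus strand: chrX:9469275-9469574 for Cybb, chr5:134229576-134229875 for Ncf1 and chr8:122432891-122433190 for Cyba. Capitals mark, on either strand, GAAA followed by any 2 bases and GAAA (the interferon response motif, which IRF proteins bind), AGGAA (a motif of Ikaros in this study, whose GGAA core ETS factors such as PU.1 also bind) and CCAAT (bound by NF-Y).
Cybb: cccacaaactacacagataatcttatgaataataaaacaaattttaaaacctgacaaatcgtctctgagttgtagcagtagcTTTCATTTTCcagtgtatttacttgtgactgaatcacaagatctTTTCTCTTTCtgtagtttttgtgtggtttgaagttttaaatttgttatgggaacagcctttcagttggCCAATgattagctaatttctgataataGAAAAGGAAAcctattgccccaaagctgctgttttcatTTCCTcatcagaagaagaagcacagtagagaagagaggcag
Ncf1: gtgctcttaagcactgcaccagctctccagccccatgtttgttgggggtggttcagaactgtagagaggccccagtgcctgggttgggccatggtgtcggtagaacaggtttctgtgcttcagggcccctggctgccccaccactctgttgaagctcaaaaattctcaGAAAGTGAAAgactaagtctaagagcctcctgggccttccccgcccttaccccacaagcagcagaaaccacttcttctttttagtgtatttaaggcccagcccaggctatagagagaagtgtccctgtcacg
Cyba: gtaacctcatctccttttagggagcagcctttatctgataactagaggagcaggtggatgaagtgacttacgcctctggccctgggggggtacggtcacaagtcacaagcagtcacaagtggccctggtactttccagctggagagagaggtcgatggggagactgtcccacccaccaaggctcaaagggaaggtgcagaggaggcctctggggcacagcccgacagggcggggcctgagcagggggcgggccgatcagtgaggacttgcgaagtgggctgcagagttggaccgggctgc
The interferon response motif occurred 3 times in the Cybb window, from 168 to 159, from 124 to 115 and from 29 to 20 bases before the start, and 1 time in the Ncf1 window, from 82 to 73 bases before it. Of 32817 promoter windows of this length, 3.43% held it. AGGAA occurred 2 times in the Cybb window, 1 of them inside the interferon response match nearest to the start, and in 66.7% of all windows; the longer GAGGAA, in 28.3% of windows, coincided with the other match, which lies after the start. CCAAT stood from 56 to 52 bases before the start of Cybb and in 37.4% of windows. The Cyba window held none of these, and none of the 3 windows held TTGCNNAA (10.8% of all windows, read by C/EBP factors) or TGACGTCA (1.79%, the CREB site). The shorter GGAA and GGGA, which the paper also treats as putative Ikaros motifs, were not counted. Both occur in all 3 windows. The G and C content was 35.3% for Cybb, 54% for Ncf1 and 60.7% for Cyba, beside a median of 52.7%. Only 3.99% of windows had a lower content than that of Cybb, and the motif shares were not matched for this content. A match is a run of letters, not a site shown to be bound.

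**Figure D1:**
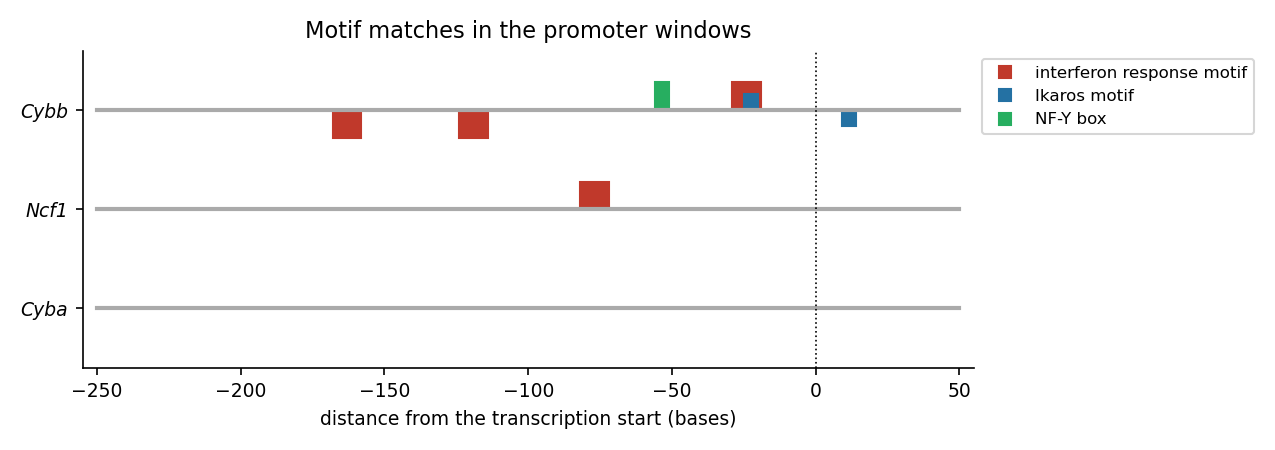
Motif matches in the promoter windows of Cybb, Ncf1 and Cyba against distance from the transcription start in bases; boxes above a line lie on the strand of the gene and boxes below it on the other strand. Cybb has 3 interferon response matches, Ncf1 has 1 and Cyba has none. The Ikaros motif drawn is AGGAA alone.

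Some facts of the whole series touch these values. The arrays correlated at 0.986 to 0.995 over all probe sets, with the lowest value between WT 2 and IkL/L 2. Ikzf1, the mutated gene, was lower in IkL/L cells (log2 difference -0.68, adjusted p = 0.0307 in limma), a call that held in 1 of the 6 fits that each left out 1 array, that without WT 3. Array medians lay between 4.79 and 4.88, and a level near or under them cannot be told from background. Kit, Cd34 and Cd48, which LSK cells express, stood far above these medians, at log2 values of 11.07 to 11.50, 12.07 to 12.27 and 10.66 to 11.07. In bulk samples, fewer cells of a type and less RNA per cell cannot be told apart.

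Of the membrane pair, the catalytic subunit Cybb was higher in IkL/L cells and its partner Cyba was not. The brightest probe set of Cybb gave log2 values of 5.14, 4.14 and 5.09 on WT 1, 2 and 3 and of 6.82, 6.74 and 6.31 on IkL/L 1, 2 and 3. All 3 IkL/L values lay above all 3 WT values. The means were 4.79 ± 0.56 in WT and 6.62 ± 0.27 in IkL/L (SD, n = 3), a log2 difference of 1.83 with a 95% interval from 1.21 to 2.46. The WT values surround the array medians, so that no fold is given. The difference was 1.51 without WT 2, the lowest array, and 1.74 without IkL/L 1.

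The other probe sets of Cybb were dim and differed less. The one designed from the same transcript record (AV373944) as the brightest gave 3.76, 4.12 and 3.68 in WT and 4.65, 4.30 and 3.72 in IkL/L, with overlapping groups and a log2 difference of 0.37 (95% interval -0.17 to 0.90). The third gave 2.95, 2.96 and 3.03 in WT and 3.63, 3.16 and 3.48 in IkL/L, apart in the same direction, with a log2 difference of 0.44 (0.14 to 0.75). Both lay under the array medians on every array, and the mean over the 3 probe sets differed by 0.88 on the log2 scale. The large difference of Cybb therefore came from 1 of its 3 probe sets.

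Cyba, read by 1 probe set well above the array medians, was nearly level. Its log2 values were 9.996, 9.908 and 9.969 in WT and 9.977, 10.051 and 9.633 in IkL/L. The groups overlapped, and IkL/L 3 was the lowest array. The means were 9.96 ± 0.04 and 9.89 ± 0.22 (SD, n = 3), with a log2 difference of -0.07 and a 95% interval from -0.36 to 0.22. Without IkL/L 3 the difference was 0.06.

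The cytosolic organiser Ncf1 was higher in IkL/L cells by its brightest probe set, and the activity regulator Ncf4 was lower on 2 of the 3 IkL/L arrays than on every WT array. Ncf1 gave log2 values of 10.25, 9.22 and 10.08 on the WT arrays and of 10.64, 10.49 and 10.63 on the IkL/L arrays. The groups did not overlap, and WT 2 lay about 1 unit under the other WT arrays, as it did for Cybb. The means were 9.85 ± 0.55 and 10.59 ± 0.08 (SD, n = 3), a log2 difference of 0.74 (95% interval 0.17 to 1.30), or 1.67-fold. Without WT 2 the difference was 0.42, so that this array carried much of its size.

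The other probe sets of Ncf1, both designed from 1 record (BE370703), pointed the same way with overlapping groups. The brighter gave 6.86, 6.07 and 6.58 in WT and 7.14, 6.54 and 7.52 in IkL/L, with a log2 difference of 0.56 (95% interval -0.07 to 1.20). WT 2 was again the lowest array. The dimmest gave 3.96, 4.34 and 3.85 in WT and 3.76, 3.84 and 5.92 in IkL/L, so that its difference of 0.46 (-0.75 to 1.66) rested on IkL/L 3 alone.

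Ncf4, whose product binds a lipid of the phagosome and sustains the activity of the oxidase there, gave log2 values of 9.311, 9.856 and 10.005 in WT and of 9.999, 9.066 and 9.016 in IkL/L. The groups overlapped, since IkL/L 1 stood with the highest WT array. The means were 9.72 ± 0.37 and 9.36 ± 0.55 (SD, n = 3), a log2 difference of -0.36 with a 95% interval from -1.02 to 0.29. It was -0.68 without IkL/L 1 and -0.19 without IkL/L 3.

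**Figure D2:**
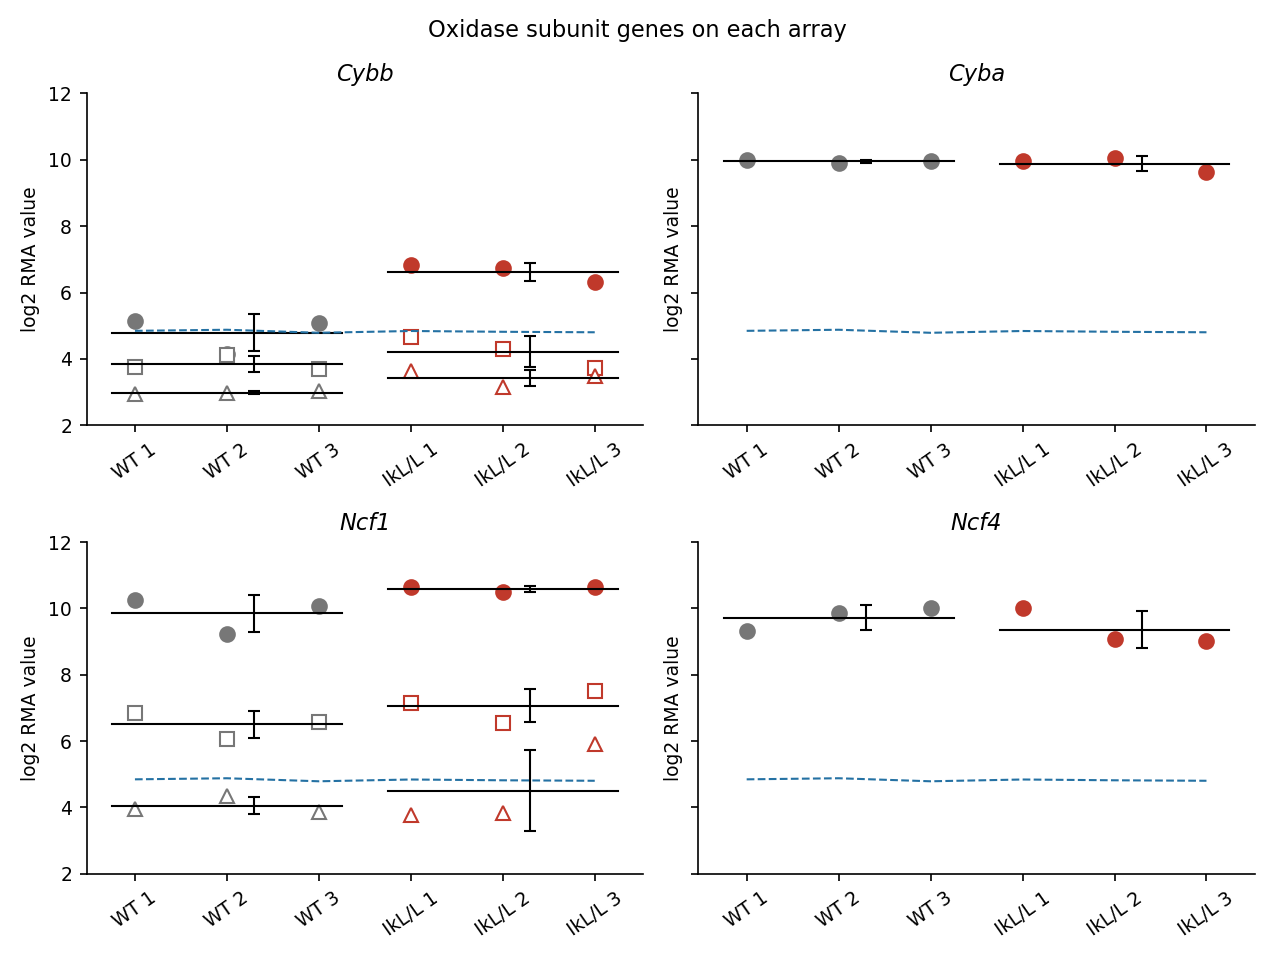
Log2 RMA value (vertical axis) of every probe set of the members, array by array, with WT in grey and IkL/L in red. Filled points are the brightest or only probe set of a gene, open points the others, black lines and bars the mean and SD of 3 arrays, and the dashed line the array medians (on WT 2 the filled Cybb point, at 4.14, is covered by an open one at 4.12); of the probe sets with all IkL/L values above the medians, only the brightest of Cybb and of Ncf1 have every IkL/L array above every WT array.

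Read by gene, 2 of the 4 members had IkL/L values all above the WT values, Cybb and Ncf1, beside 7.62% of all genes, and 0 had them all below, beside 9.59%. By probe set, 3 of 8 were apart above WT, beside 6.06% of all probe sets, and 0 below, beside 8.36%. In limma 1 of the 4 genes, Cybb, passed the adjusted threshold of 0.05 as higher and 0 as lower, beside 0.748% and 0.242% of 18193 genes (0.989% in either direction). Of the 8 probe sets 1 passed as higher and 0 as lower, beside 0.424% and 0.133% of 45037 (0.557% in either direction). As the genes were chosen on this contrast, nothing is read from these counts. Cybb passed without WT 2 or WT 3 and not without each of the other 4 arrays. The median log2 difference of the 4 genes was 0.33, beside -0.02 for all genes, but the 4 values ran from -0.36 to 1.83. The members thus did not move as a block.

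**Figure D3:**
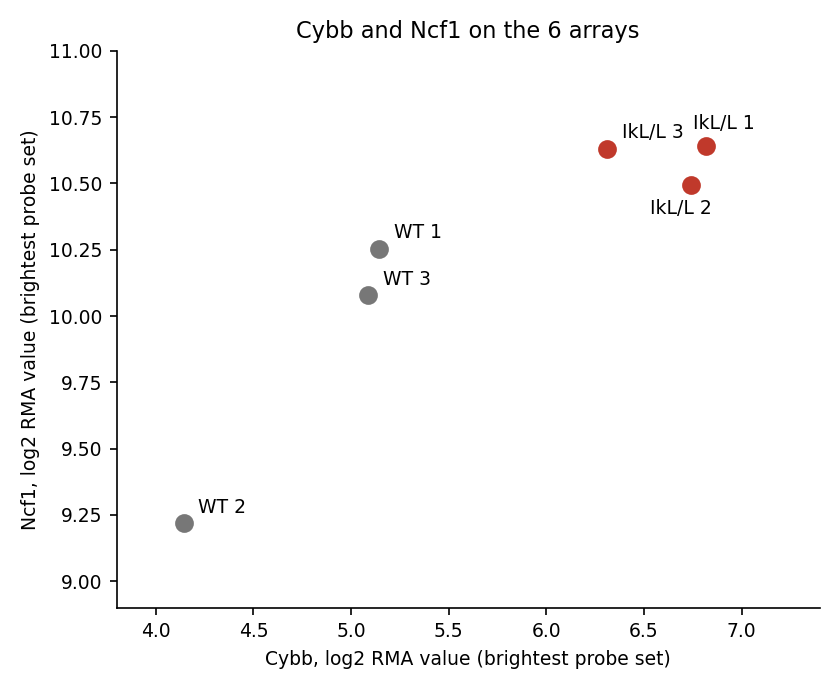
Log2 RMA value of the brightest probe set of Cybb (horizontal axis) against that of Ncf1 (vertical axis), 1 point per array; axes do not start at 0. WT 2 is lowest in both genes, at 4.14 and 9.22, and the 3 IkL/L arrays are highest in both.

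Between members, Cybb and Ncf1 correlated at r = 0.909 over the 6 arrays, and the other pairs at -0.43 to 0.34. The members were left out of the search for the genes closest to each of them. Among 11274 other genes at or above the median level, the highest Pearson correlations were with Creld1, Rnf167 and Zcchc3 for Cybb (r = 0.995, 0.993 and 0.992), with Dcaf11, Cdk5 and Gstm1 for Ncf1 (0.992, 0.991 and 0.990), with Vnn1, Agpat4 and Rsad2 for Cyba (0.986, 0.983 and 0.981) and with Gm26910, Lgalsl and Fip1l1 for Ncf4 (0.993, 0.990 and 0.984). With 6 arrays that share a normalization and a genotype step, such values are a description, and 78 genes exceeded 0.95 for Cybb and 56 for Ncf1, against 23 for Cyba and 13 for Ncf4. Gstm1, a glutathione transferase, shared the low WT 2 value of Ncf1, with 9.25, 8.34 and 9.07 in WT and 9.60 to 9.74 in IkL/L. Vnn1, a pantetheinase, shared the low IkL/L 3 value of Cyba, at 4.78 there and at 5.64 to 6.01 on the other arrays.

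None of the other oxidase genes that were measured passed the test. Of the 7 measured out of 9 listed, 0 rose and 0 fell, with log2 differences from -0.20 to 0.88 and a median of 0.05. Hvcn1, the proton channel that offsets the charge the oxidase moves, had log2 values of 8.13, 7.29 and 7.82 in WT and of 8.42, 8.79 and 8.66 in IkL/L. Its groups did not overlap and WT 2 was lowest, as in Cybb and Ncf1, but its log2 difference of 0.88 (95% interval 0.39 to 1.36) gave an adjusted p of 0.177 in limma. Rac1 gave 0.33 (adjusted p = 0.353), and Rac2, the Rac GTPase of blood cells that serves the oxidase in neutrophils, gave -0.13 (95% interval -0.45 to 0.20, adjusted p = 0.851), with 9.93 to 10.38 in WT and 9.93 to 10.16 in IkL/L. Another probe set of Rac2, under the array medians, gave -0.38 (adjusted p = 0.227), and others of Rac1 gave 0.08 and -0.14. Cybc1, the chaperone needed to make the Cybb and Cyba pair, was steady, with 9.45 to 9.61 in WT and 9.49 to 9.71 in IkL/L (log2 difference 0.05, 95% interval -0.19 to 0.28). Arhgdib, which holds Rac GTPases in the cytosol, gave 0.19 (-0.16 to 0.55), the chloride transporter Clcn3 -0.20 (-0.60 to 0.19) and the GTPase Rap1a 0.00 (-0.20 to 0.20).

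Of 5 measured genes of other NADPH oxidases, 0 rose and 0 fell (log2 differences from -0.27 to 0.11). Nox4, Duox1 and Duoxa2 lay under the array medians on all 6 arrays, so that Cybb was the one catalytic subunit among those measured with values above them. Noxo1, the organiser of the oxidase in epithelia, stood at 6.22 to 6.41 in WT and 6.03 to 6.09 in IkL/L (-0.27, adjusted p = 0.439). Of 15 kinases, lipid enzymes and exchange factors upstream of assembly, 0 rose and 0 fell, with a median of -0.03. Prkcb, a kinase that phosphorylates Ncf1, gave 0.40 (adjusted p = 0.449), the Rac exchange factors Vav3 and Dock2 -0.28 (0.454) and -0.25 (0.616), and Mapk14 -0.15 (0.704).

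**Figure D4:**
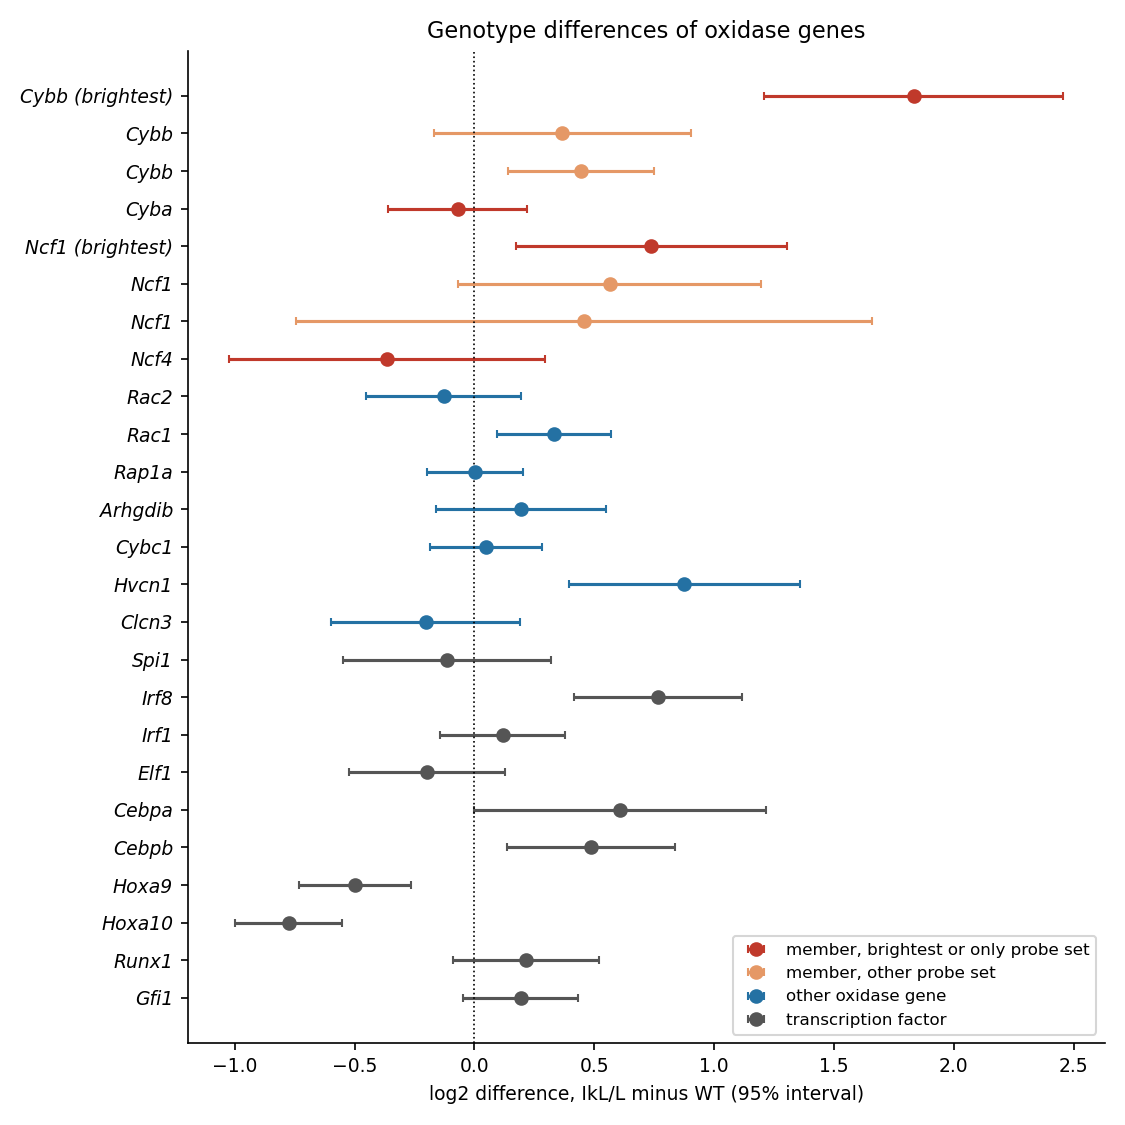
Log2 difference, IkL/L minus WT (horizontal axis), with its 95% interval from limma, for each probe set of the members, for the 7 other oxidase genes and for the 10 transcription factors. The member differences are given as a description, since the members were chosen on this contrast. The other genes were listed with earlier results of these data known, and of them only Hoxa10 passed the adjusted threshold.

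Of 10 measured transcription factors known to act on oxidase genes, 1 fell and 0 rose. Hoxa10, a homeobox factor known to repress Cybb in immature myeloid cells, stood at 5.23, 5.15 and 5.28 in WT and at 4.50, 4.49 and 4.34 in IkL/L, with a log2 difference of -0.78 (adjusted p = 0.0175 in limma). These levels lie just above the array medians in WT and under them in IkL/L, so that the size is uncertain. Its other probe set gave 0.08, and the mean of both gave -0.35 and did not pass (adjusted p = 0.102). The call held without WT 2 or WT 3 but not without any other array, with log2 differences from -0.81 to -0.72. Irf8, a factor of the interferon response element and of monocyte and dendritic cell development, stood at 10.09, 10.14 and 10.15 in WT and at 10.88, 10.60 and 11.21 in IkL/L. Its groups were apart in both of its probe sets, at log2 differences of 0.77 and 0.75, but neither passed (adjusted p = 0.100 and 0.0828), whereas their mean did (0.76, adjusted p = 0.0266). Hoxa9 gave -0.50 (0.108), Cebpb 0.49 (0.353), Cebpa, a driver of granulocyte development, 0.61 with overlapping groups (0.566), Irf1 0.12 (0.827) and Spi1, which encodes PU.1, -0.11 (95% interval -0.55 to 0.32, adjusted p = 0.907).

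The enzymes that remove oxidase products and those that supply its electron donor did not pass either. Of 20 measured genes for removal of superoxide and peroxide, 0 rose and 0 fell (median 0.04). Glutathione reductase, Gsr, gave the smallest p, with 5.96, 6.59 and 7.15 in WT and 7.58, 7.27 and 7.70 in IkL/L (log2 difference 0.95, adjusted p = 0.296), followed by catalase, Cat (-0.29, 0.388), by the quinone reductase Nqo1, under the array medians throughout, (0.28, 0.680) and Prdx4 (0.18, 0.720). Of 6 measured genes that form NADPH, 0 passed. Idh1 was apart, with 9.35, 9.89 and 9.66 in WT and 10.39, 10.36 and 10.52 in IkL/L (0.79, adjusted p = 0.0772), and it passed without WT 2 (adjusted p = 0.0491, log2 difference 0.91) but in no other fit that left out 1 array. Me1, under the array medians throughout, gave -0.27 (0.571), Taldo1 0.14 (0.763) and Pgd 0.12 (0.780).

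Markers of other cell types that express the oxidase also differed between the genotypes. Of 12 measured genes of granulocyte and monocyte progenitors, 3 rose (Csf1r, the M-CSF receptor, by 1.76, Ms4a3 by 2.38 and neutrophil elastase, Elane, by 2.16 on the log2 scale; adjusted p = 0.00200, 0.0175 and 0.0312) and 0 fell, and 10 were apart above WT. Their log2 values summed to 115 to 120 on the WT arrays and to 127 to 131 on the IkL/L arrays, and none of them lay under the array medians on all arrays. Over all genes 7.62% were apart above WT, 0.748% passed as higher and 0.242% as lower, shares to set beside each marker list. Irf8 and Gfi1 stand both on this list and on that of the transcription factors. Csf1r passed in all 6 fits that left out 1 array; Ms4a3 and Elane passed without WT 3 or IkL/L 2 and in no other. Of 10 genes of mature neutrophils 1 rose, Lcn2 (2.08, adjusted p = 0.0276), which among those 6 fits passed only without IkL/L 2, while the sums overlapped (42.5 to 49.1 and 46.4 to 53.0). The mean of Lcn2 over all arrays lay under the median of all probe sets, so that the size of its difference is uncertain. S100a8 gave 1.52 (0.578) and Ngp 0.35 (0.676). The granule gene Ltf, Mmp8 and Cxcr2 lay under the medians on all arrays. The part of these cells in the Cybb and Ncf1 values was not tested.

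Of 13 macrophage genes 0 rose and 0 fell, with overlapping sums of 62.8 to 68.2 and 62.9 to 68.5. Cd68 gave 1.17 (adjusted p = 0.0651) and passed in 5 of 15 alternatives, among them those without WT 2 or WT 3. C1qa gave -0.87 (0.4999) and Mrc1 0.24 (0.558). Adgre1 stood at 5.10 to 5.26 in WT and 5.22 to 5.36 in IkL/L, and C1qb, Mrc1, Mertk, Axl and Marco lay under the medians on all arrays. Of 8 dendritic cell genes 1 rose, the invariant chain Cd74 (1.46, adjusted p = 0.0317), which passed without IkL/L 2 or IkL/L 3 and not without each of the other arrays. H2-Aa gave 1.75 (0.0580) and passed in 4 of 15 alternatives, among them those without IkL/L 2 or IkL/L 3, and the integrin Itgax gave -0.58 (0.0764) and passed in 2 of 14. The sums were 40.9 to 41.5 in WT and 42.4 to 44.7 in IkL/L, and Siglech, Cd209a, Xcr1 and Batf3 lay under the medians throughout. Of the 8 dendritic cell genes, however, 4 differed above 0 and 4 below, with a median log2 difference of -0.04. Of 7 B cell genes 2 rose, Vpreb1 (1.38, adjusted p = 0.00274, in all 6 of those fits) and Ms4a1 (2.38, 0.0165, lost without WT 1 or IkL/L 1), with sums of 36.2 to 37.1 and 39.9 to 42.4. The mean of Ms4a1 over all arrays lay under the median of all probe sets, so that the size of its difference is uncertain. Igll1 gave 0.53 (0.117), and Ebf1 lay under the medians. Of 6 genes of eosinophils, basophils and mast cells Mcpt8 rose (2.47, 0.00306, in all 6 fits), with sums of 36.5 to 41.2 and 42.7 to 46.3, while Ms4a2 gave 0.67 (0.234) and Cpa3 0.42 (0.244). All 6 genes of the eosinophil, basophil and mast cell list differed above 0, by 0.39 to 2.47. Mcpt8, a basophil gene, was its only call, and none of its eosinophil genes passed. Eosinophils and B cells also make the oxidase, and their part in the member values was not tested.

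The LSK and stroma lists held no call with all 6 arrays, but without WT 3 Flt3 (-1.07, adjusted p = 0.0442) and Col1a1 (-1.92, 0.0320) passed as lower. Of 8 LSK genes 0 passed, with overlapping sums of log2 values of 78.7 to 80.0 in WT and 76.1 to 79.4 in IkL/L. Still, 3 of them were apart below WT and 0 above, beside 9.59% and 7.62% of all genes. Sums on the linear scale did not overlap, at 12963 to 14698 in WT and 10964 to 12442 in IkL/L. Flt3 gave -0.88 (adjusted p = 0.132), Mecom -0.47 (0.328) and Procr 0.69 (0.409). Of 7 stroma genes 0 passed, but the sums were 49.0, 44.4 and 41.3 on WT 1, 2 and 3 and 39.1 to 40.7 in IkL/L. Col1a1 reached 6.36 on WT 1 and 5.47 on WT 2, against 3.75 to 4.43 elsewhere (-1.43, 0.303), Sparc gave -1.24 (0.566), or -1.88 to -0.60 when 1 array was left out, and Lepr -0.32 (0.509). All 3 IkL/L sums of log2 values lay under all 3 WT sums. On the linear scale the stroma sums overlapped, at 1613 to 3156 in WT and 1457 to 1891 in IkL/L. The part of stromal cells in the member values was not tested.

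**Figure D5:**
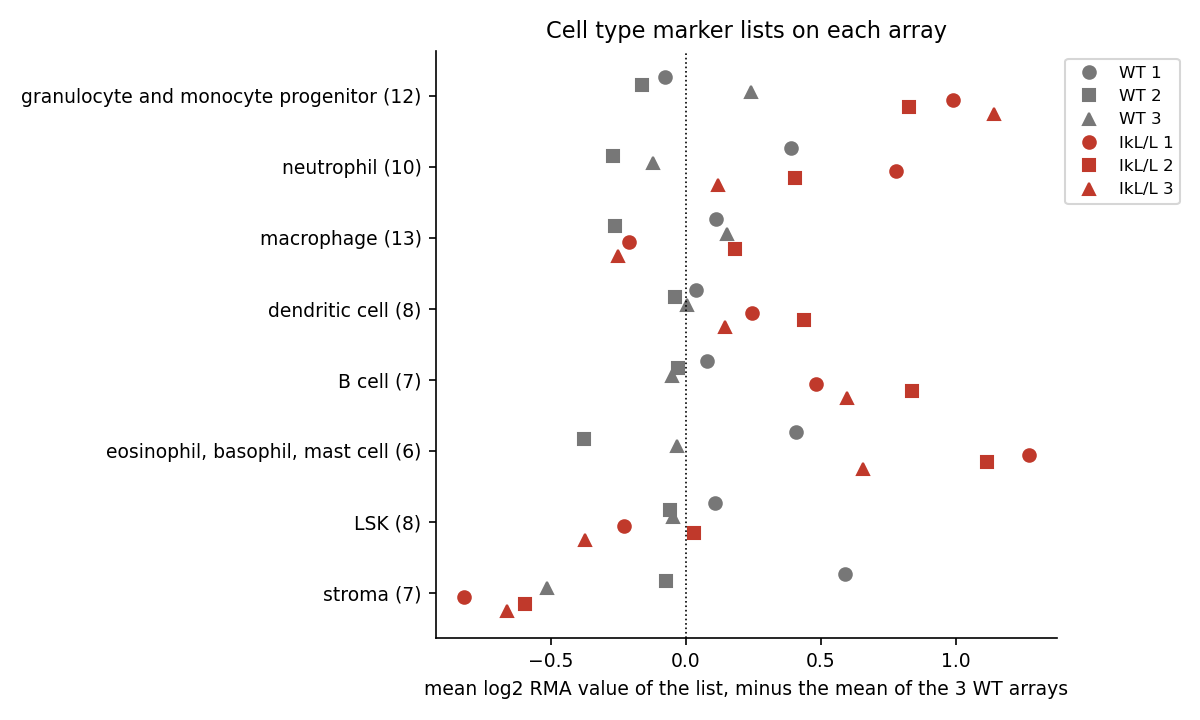
Mean log2 RMA value of each cell type marker list on each array, minus the mean of the 3 WT arrays (horizontal axis); brackets give how many genes of a list were measured. Means are higher on all 3 IkL/L arrays for the granulocyte and monocyte progenitor, dendritic cell, B cell and eosinophil, basophil and mast cell lists. The neutrophil, macrophage and LSK lists overlap. Of the 8 dendritic cell genes, 4 differed above 0 and 4 below.

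Because Cybb lies on the X chromosome, genes that tell male from female cells are given beside it. Xist, transcribed from the inactive X chromosome of female cells, stood at 12.33 on IkL/L 1 and at 4.65 to 5.29 on the other 5 arrays. The Y-linked gene Eif2s3y stood at 7.78 on IkL/L 1 and at 9.01 to 9.53 on the others, Kdm5d at 5.86 against 7.19 to 7.69 and Uty at 5.11 against 5.95 to 6.65. IkL/L 1, a pool of 2 mice, was thus the one array with both signals, and none of the 4 genes passed the test between genotypes (adjusted p = 0.780 for Xist, 0.812 for Eif2s3y, 0.601 for Kdm5d and 0.536 for Uty). Without IkL/L 1 the log2 difference of Cybb was 1.74 and it no longer passed the adjusted threshold, and the part of sex in the Cybb values was not tested.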

How the data were processed

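Total RNA of sorted LSK cells (100 ng per sample, labelled in a 2-cycle reaction) was hybridised to Affymetrix mouse expression arrays. The deposited values are on the log2 scale and came from RMA, that is background correction, quantile normalization and a summary over probes; per the submitters' processing notes RMA (no version) and R 2.8 were used. The study's methods state that LSK arrays were normalized together with thymocyte arrays, and whether the deposited values stem from that run was not determined. The quantile step removes any change in total RNA, and RMA gives no detection call. The number of arrays limits the precision. A p-value sets the genotype difference against the spread of arrays within the groups, moderated over all probe sets, and covers only these 6 samples. The fit used a common variance for both groups. WT arrays came from single mice and IkL/L arrays from pools of 2 mice, so that their spreads do not measure the same thing.

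The table held 45037 probe sets: 34945 with 1 gene in the platform annotation, 932 with several and 9160 not listed. Symbols were updated through the Entrez number (34741 matched) in a RefSeq table of GRCm38.p6. A gene was read from its probe set with the highest mean over 6 arrays. IkL/L was compared with WT in limma 3.58.1 under R 4.3.3 by a moderated, two-sided test with no covariate, and p-values were adjusted over all probe sets by Benjamini-Hochberg, at a threshold of 0.05. The fit was tested on simulated data. The members and the 16 gene lists, with 165 entries, were chosen with earlier results of these data known. Named were all members and oxidase genes, of each other pathway list up to 4 genes and of each marker list up to 3 with the smallest p, Ikzf1, and the 3 genes most correlated with each member. Kit, Cd34, Cd48, Adgre1, Eif2s3y, Cebpa, Irf1 and Spi1, and genes named for lying under the array medians, fall outside this rule and were chosen after their values were seen. Promoter windows were searched for 6 motifs. Alternatives were other normalizations, filters, variance models, array weights, the replicate number as a block, other ways to read a gene, a shorter promoter window and each array left out. A planned comparison of protein sequences was not run.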

Additional observations from a re-analysis of the deposited data

How the results depend on the processing

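The number of probe sets called was 251, and 57 to 287 when 1 array was left out (57 without WT 1, 67 without IkL/L 1, 142 without IkL/L 2, 143 without WT 2). The same numbers 1 to 3 occur in both groups, but deviations of same-numbered arrays correlated at 0.008, -0.11 and 0.08, and only replicate 3 correlated best with its own number. These values gave no sign that the numbers pair the samples. With 3 arrays per group, whose deviations from the group mean sum to 0, they cannot exclude pairing. With the replicate number as a block 143 probe sets were called, and 4 calls given in the text were lost: Cybb, Hoxa10 (adjusted p = 0.0805), Ikzf1 (0.118) and Cd74 (0.0648). The 6 pathway lists besides the members held 1 call, and 0 with the block, 0 with a mean of at least 6 (which leaves out Cybb and Hoxa10), 3 with an intensity trend, 2 with array weights, 2 with probe sets averaged per gene and 0 to 2 when 1 array was left out. The call was Hoxa10; with averaged probe sets it was lost (-0.35, adjusted p = 0.102) and the calls were Irf8 (0.0266) and Idh1 (0.0326).

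Among the members, Cybb kept its direction in 14 of 14 alternatives (0.88 with the mean of its probe sets, 1.51 to 2.01 with 1 array left out), Ncf1 in 15 of 15 (0.42 to 0.94 with 1 array left out, 0.46 with its most variable probe set) and Ncf4 in 15 of 15 (-0.68 to -0.19 with 1 array left out, -0.12 with array weights). Cyba was below 0 in 14 of 15 (-0.15 to 0.06 with 1 array left out). These counts include alternatives that could not change a direction. Filters, the intensity trend and the replicate block leave the log2 difference itself as it was. The same holds for other ways to read Cyba and Ncf4, which have 1 probe set each. The most variable probe set of Cybb is its brightest. Among the other named genes the sign changed for 7 with differences between -0.28 and 0.18, and for Xist. Rap1a gave -0.017 with a second quantile normalization, -0.0014 with the mean of its probe sets, -0.0049 with its most variable probe set and -0.019 to 0.020 with 1 array left out. Duox1 gave 0.023 with array weights and -0.17 to 0.052 with 1 array left out, Duoxa2 -0.013 to 0.13 and Cybc1 -0.0093 to 0.099 there, and Xist, at 2.25 with all arrays, -0.20 without IkL/L 1 (up to 3.63). Nox4 gave -0.031 with the mean of its probe sets, and with the most variable probe set Nox4 gave -0.17, Vav3 0.23 and Prdx4 -0.12. In a window from 100 bases before to 50 after the start, Cybb held 1 interferon response match in place of 3, and the counts of the other motifs did not change. Dim levels, as of Cybb in WT cells and of Hoxa10, Lcn2 and Ms4a1, limit what can be said of size.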
